A study of Mus musculus with 17 samples.

Results

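Matrix metalloproteinases (MMPs) and their tissue inhibitors (TIMPs) were followed in thioglycollate-elicited mouse peritoneal macrophages that had been exposed in culture to the HIV protein Tat. The 9 genes described are 6 MMPs (Mmp8, Mmp9, Mmp12, Mmp13, Mmp14 and Mmp19) and 3 inhibitors (Timp1, Timp2 and Timp3), chosen by symbol among the 21683 rows of the expression table, and all 9 passed the filter on low values, with 10451 genes tested in all. RNA-Seq was analysed in 17 libraries in 3 groups. F/F PBS (n = 6) and F/F Tat (n = 6) came from IKKβF/FLDLR-/- mice, whose Ikbkb gene carries loxP sites and is intact, and ΔMye Tat (n = 5) from IKKβΔMyeLDLR-/- mice, in which a Cre recombinase knocked into 1 copy of the lysozyme gene Lyz2 (LysM-Cre) deletes IKKβ in myeloid cells. By the labels all mice were C57BL/6 and 8 weeks old, and all lacked the low-density lipoprotein receptor, so every group, the controls included, carried that deletion and the floxed alleles. Cells were left to attach for 4 hours and were then given PBS or 100 nM Tat for 12 hours. Libraries of IKKβΔMyeLDLR-/- cells given PBS were not analysed here, so what separated the groups given Tat may have been there before it. The study describes the libraries as biological replicates of mice, while the labels do not tie a library to a mouse.

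MMPs are zinc-dependent endopeptidases that cleave collagens, elastin, proteoglycans and many non-matrix proteins. Most are secreted as inactive proenzymes and become active when the propeptide is removed, often by plasmin, furin or another MMP, and TIMPs block the active enzymes by binding in their catalytic cleft. In the vessel wall, macrophages are a main source of these enzymes, which are known for their part in thinning the fibrous cap of atherosclerotic plaques.

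All 8 macrophage markers had a mean of at least 10 TPM (transcript abundance per length, summing to a fixed total) in each group. Their summed level moved with the groups, from 25796 to 26807 TPM in F/F PBS to 10310 to 10890.0 TPM with Tat in F/F cells and 8019 to 8344 TPM in ΔMye Tat. Lyz2, the gene that carries the Cre insertion in ΔMye cells, led that sum (means of 22382, 6993 and 4333 TPM). Csf1r had means of 381, 64.0 and 103.6 TPM, Cd68 of 2596, 1744 and 1886 TPM and Itgam of 178, 106 and 116 TPM. The markers did not all move alike. Adgre1 had means of 499, 441 and 512 TPM and Mertk of 15.4, 20.1 and 24.3 TPM. Cd14 had means of 203, 842 and 1009 TPM and Fcgr1 of 113, 300 and 164 TPM. The part of these shifts in the values of the 9 genes was not tested. The listed genes summed to between 889318 and 903576 TPM per library. Pearson r between libraries of a group, on the log2 scale, was 0.991 to 0.993, and no pair within a group had more than 8 equal values among the genes detected in either. The targeted gene Ikbkb had group means of 26.8 TPM with PBS and, with Tat, of 23.2 TPM in F/F cells and 16.4 TPM in ΔMye cells, so its RNA was lower in the deleted cells without being absent (log2 difference -0.51, SE 0.08, limma adjusted p = 4.51e-05 against F/F Tat, and -0.73 after the scaling given next). The read depth of the libraries is unknown, since TPM hold no counts. On the log2 scale the median over all tested genes moved by -0.65 with Tat and by 0.22 in ΔMye Tat against F/F Tat, and so the differences of the 9 genes are also given after the libraries were scaled to a common median ratio.

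Mmp13, Mmp12 and Mmp8 lie in 1 cluster on chromosome 9 (GRCm38), and the bases before their starts are shown because these neighbours moved in different directions with Tat. Each window holds the 250 bases 5′ of a RefSeq transcript start on the plus strand (GRCm38.p6), of Mmp13 at chr9:7272264-7272513, of 1 of the starts of Mmp12 at chr9:7347124-7347373, and of Mmp8 at chr9:7558179-7558428. Capitals mark AP-1 motifs (TGANTCA), a RUNX motif (AACCACA) and a TATA motif (TATAAA), searched on both strands.
Mmp13: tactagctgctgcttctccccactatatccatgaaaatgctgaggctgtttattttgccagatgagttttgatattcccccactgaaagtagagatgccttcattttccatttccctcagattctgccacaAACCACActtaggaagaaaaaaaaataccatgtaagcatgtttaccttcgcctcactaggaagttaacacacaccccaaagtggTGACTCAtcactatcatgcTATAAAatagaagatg
Mmp12: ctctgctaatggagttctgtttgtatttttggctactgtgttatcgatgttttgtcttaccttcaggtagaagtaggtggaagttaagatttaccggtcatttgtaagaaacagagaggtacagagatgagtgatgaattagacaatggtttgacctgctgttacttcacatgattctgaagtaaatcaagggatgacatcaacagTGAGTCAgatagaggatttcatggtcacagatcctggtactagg
Mmp8: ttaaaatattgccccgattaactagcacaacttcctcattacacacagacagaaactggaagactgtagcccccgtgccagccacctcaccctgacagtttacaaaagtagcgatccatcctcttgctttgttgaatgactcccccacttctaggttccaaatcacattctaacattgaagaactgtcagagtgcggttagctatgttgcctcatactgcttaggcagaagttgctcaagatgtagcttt
In the Mmp13 window the AP-1 motif lay 35 to 29 bases before the start, the RUNX motif 119 to 113 bases and the TATA motif 16 to 11 bases before it, and no 2 of these overlapped. All are matches of letters placed from the annotated start, and whether these cells use that start or these motifs was not tested. The Mmp12 window held an AP-1 motif 44 to 38 bases before the start, and the Mmp8 window held none of the motifs searched. The files do not show which start of Mmp12 these cells used, and the other Mmp12 window, at chr9:7344147-7344396, held no AP-1, RUNX or TATA match but 1 NF-κB motif on the minus strand, 129 to 120 bases before its start. Windows were found for 7 of the 9 genes (8 windows in all). AP-1 matched in 2 of the 8 and in 6.749% of 32851 promoter windows of the same length, RUNX in 1 of 8 against 4.396%, TATA in 1 of 8 against 12.37% and the NF-κB motif in 1 of 8 against 7.251%. Mmp14, Timp1, Timp2 and Timp3 had no match, which says only that these letters were not in the window.

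To determine how Tat altered the family, F/F Tat was compared with F/F PBS in limma, with the 3 groups in 1 fit, and calls needed both a fold change over 3 and an adjusted p below 0.01. Mmp13 and Timp1 rose, Mmp8 and Mmp19 fell, and these 4 of the 9 genes were called, against 24.6% of all tested genes (5.21% higher and 19.4% lower). By the adjusted p alone, 8 of the 9 changed, 3 higher and 5 lower, against 84.6% of all tested genes (17% higher and 67.6% lower). Timp3, among those lower, was tested only through F/F PBS, its highest group. The groups did not overlap for 8 of the 9 genes, against 77.6% of all tested genes. The median log2 difference of the 9 was -0.91, beside -0.65 over all tested genes. After scaling, Mmp14 was called as well, which gave 3 higher (background 8.51%) and 2 lower (9.73%).

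**Figure D1:**
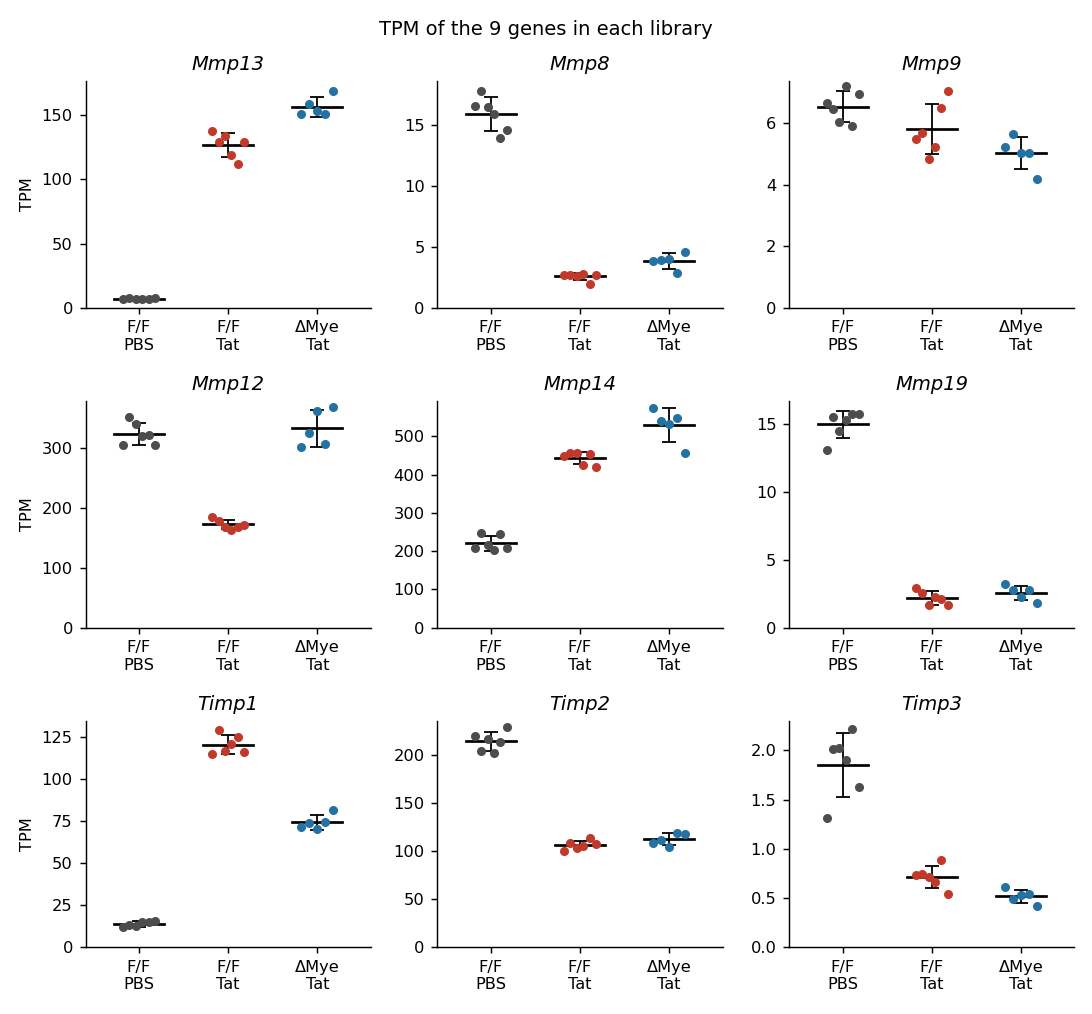
TPM of the 9 genes in each library, with 1 panel for each gene, a linear vertical axis from 0, 1 point for each library, the group mean as a bar and the SD (n = 6, 6 and 5) as a whisker. The F/F Tat points of Mmp13 and Timp1 lie far above the F/F PBS points, those of Mmp8 and Mmp19 far below, and those of Mmp12 lie below both other groups.

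Among the collagenases, which cut the triple helix of fibrillar collagen, Mmp13 rose and Mmp8 fell. Mmp13 (collagenase 3; chr9:7272514-7283331) had 6.52 TPM in the lowest, 6.88 in the median and 7.43 in the highest F/F PBS library, and 111.9, 129.0 and 137.6 TPM in the lowest, median and highest F/F Tat library. Every F/F Tat library stood above every F/F PBS library, with means of 126.6 ± 9.49 and 6.93 ± 0.413 TPM (SD, n = 6 each), an 18.3-fold ratio. On the log2 scale the difference was 4.17 (SE 0.05, limma adjusted p = 6.89e-23) and 4.80 after scaling. It was the member with the highest log2 difference.

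Mmp8 (neutrophil collagenase, named for the cell type in which it was first described; chr9:7558456-7568485) had 13.9, 16.2 and 17.8 TPM in the lowest, median and highest F/F PBS library and 1.96, 2.68 and 2.81 TPM in those of F/F Tat. The groups were far apart, and the mean in F/F Tat (2.57 ± 0.306 TPM, SD, n = 6) was 16.2% of that in F/F PBS (15.9 ± 1.40 TPM). The log2 difference was -2.59 (SE 0.11, limma adjusted p = 1.65e-14) and -1.96 after scaling. The 11 neutrophil markers had a summed level of 108.8 to 122 TPM in F/F PBS, 193 to 210.1 TPM in F/F Tat and 228 to 250.5 TPM in ΔMye Tat. Csf3r and S100a8, which macrophages also express, carried most of that sum, and Elane and Ngp, which encode granule proteins made by maturing neutrophils, were listed at 0 in every library. Retnlg, another marker of the list, had means of 5.07, 0.671 and 0.298 TPM in the 3 groups and S100a9 means of 1.15, 0.842 and 0.716 TPM. Camp was detected in every library, with means of 1.64, 1.86 and 2.31 TPM, and Ltf had means of 0.243, 0.0858 and 0.0959 TPM. The remaining markers Ly6g, Mpo and Cxcr2 had group means of at most 0.367 TPM. The part of neutrophils in the level of Mmp8 was not tested.

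Mmp12 was the most abundant of the 9 genes in F/F PBS and lost that place with Tat. Mmp12 (macrophage elastase, which degrades elastin; chr9:7344381-7369499) had 304.3, 321 and 351 TPM in the lowest, median and highest F/F PBS library and 163, 170.0 and 185 TPM in those of F/F Tat. The groups did not overlap, and the mean of 172 ± 8.05 TPM (SD, n = 6) in F/F Tat was 53.2% of the 324 ± 18.7 TPM in F/F PBS. The log2 difference was -0.91 (SE 0.05, limma adjusted p = 1.82e-12), against a median of -0.65 over all tested genes, and it was -0.27 after scaling (adjusted p = 3.67e-04). Of the 31-base stretches of Mmp12 transcripts, 6.59% also occur in other genes.

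Mmp14 rose and became the most abundant of the 9. Mmp14 (membrane-type 1 MMP, a collagenase anchored in the plasma membrane that also activates pro-MMP2 together with TIMP2; chr14:54431612-54445364) had 204, 211 and 246 TPM in the lowest, median and highest F/F PBS library and 419.6, 451 and 457 TPM in those of F/F Tat. All F/F Tat libraries stood above all F/F PBS libraries, with means of 443 ± 16.7 and 221 ± 19.5 TPM (SD, n = 6 each). The ratio was 2.01, under the fold threshold, with a log2 difference of 1.01 (SE 0.06, limma adjusted p = 1.36e-12) and of 1.64 after scaling, which passed it.

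Mmp19 fell and Mmp9 did not pass the test. Mmp19 (which degrades basement membrane components; chr10:128790910-128800824) had 13.1, 15.4 and 15.7 TPM in the lowest, median and highest F/F PBS library and 1.64, 2.18 and 2.94 TPM in those of F/F Tat. The F/F Tat libraries lay far below, at a mean of 2.20 ± 0.507 TPM (SD, n = 6), 14.7% of the mean of 15.0 ± 1.02 TPM in F/F PBS (log2 difference -2.74, SE 0.14, limma adjusted p = 4.73e-13, and -2.12 after scaling). This value is uncertain, since 26.7% of the 31-base stretches of Mmp19 transcripts also occur in other genes. They occurred most often in Tmem198b, a protein-coding gene that partly overlaps Mmp19 on the opposite strand. Tmem198b itself went from a mean of 5.55 to 0.542 TPM, and whether the counting used strand is not given in the sources used here. Mmp19 also lies inside the antisense gene Gm47093, which had no values listed.

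Mmp9 (gelatinase B, which cleaves denatured collagen and type IV collagen; chr2:164940780-164955850) had 5.92, 6.55 and 7.21 TPM in the lowest, median and highest F/F PBS library and 4.83, 5.59 and 7.03 TPM in those of F/F Tat. The groups overlapped, and the log2 difference of -0.18 (95% interval -0.37 to 0.02, limma adjusted p = 0.0833, exact two-sided permutation p = 0.0844) turned to 0.45 after scaling (adjusted p = 1.72e-04). No direction can therefore be given for Mmp9. It was the member that moved least with Tat on the TPM as deposited.

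Among the inhibitors, Timp1 rose while Timp2 and Timp3 were lower. Timp1 (a soluble inhibitor of most secreted MMPs, inducible in many cell types; chrX:20870166-20874735) had 12.1, 14.0 and 15.8 TPM in the lowest, median and highest F/F PBS library and 114.8, 119 and 129 TPM in those of F/F Tat. The ranges were far apart, with means of 14.0 ± 1.56 and 120.4 ± 5.55 TPM (SD, n = 6 each), an 8.62-fold ratio (log2 difference 3.10, SE 0.06, limma adjusted p = 1.23e-19, and 3.74 after scaling). Timp1 lies inside the gene Syn1 on the opposite strand, and Syn1 had a mean of 1.16 TPM in F/F PBS and 0.271 TPM in F/F Tat.

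Timp2 (which inhibits MMPs and also takes part in the activation of pro-MMP2; chr11:118301069-118355740) had 201.5, 215 and 229.0 TPM in the lowest, median and highest F/F PBS library and 100.6, 106 and 113 TPM in those of F/F Tat. The 2 groups did not overlap, and the mean fell to 49.7% (106 ± 4.46 against 214 ± 10.3 TPM, SD, n = 6 each, log2 difference -1.01, SE 0.04, limma adjusted p = 8.55e-15, and -0.37 after scaling, adjusted p = 1.71e-06). Timp3 (which binds to the extracellular matrix and also inhibits ADAM proteases; chr10:86300372-86349506) was near 1 TPM in these cells. It had 1.31, 1.96 and 2.21 TPM in the lowest, median and highest F/F PBS library and 0.543, 0.722 and 0.884 TPM in those of F/F Tat (log2 difference -1.26, SE 0.15, limma adjusted p = 2.71e-07, -0.67 after scaling and -0.09 after quantile normalization, adjusted p = 0.581). Only F/F PBS libraries reached 1 TPM, with at most 0.609 TPM in ΔMye Tat. Timp3 thus entered the test only through its highest group, so its lower level with Tat is no independent support for a fall. Of the 31-base stretches of Timp3 transcripts, 21.9% also occur in other genes, most often in Syn3. Timp3 lies inside Syn3 on the opposite strand, and Syn3 had at most 0.0767 TPM in any library.

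The order of the levels within a group changed with Tat. In F/F PBS the order was Mmp12, Mmp14, Timp2, Mmp8, Mmp19, Timp1, Mmp13, Mmp9 and Timp3, and the ranges of Mmp14 and Timp2, of Mmp8, Mmp19 and Timp1 as neighbours, and of Mmp13 and Mmp9 overlapped. In F/F Tat it was Mmp14, Mmp12, Mmp13, Timp1, Timp2, Mmp9, Mmp8, Mmp19 and Timp3, and the ranges overlapped for Mmp13 and Timp1 and for Mmp8 and Mmp19. TPM are per length of transcript, so these levels can be set side by side. The summed level of the 6 MMPs was 556 to 644 TPM (median 584) in F/F PBS and 717 to 782 TPM (median 756) in F/F Tat, and that of the 3 TIMPs was 218 to 246 and 216 to 239 TPM. Behind a TIMP sum whose ranges overlapped, Timp1 made up 6.09% ± 0.662 (SD, n = 6) of it in F/F PBS and 52.9% ± 0.795 in F/F Tat, while Timp2 made up 93.1% ± 0.749 and 46.7% ± 0.804. Mmp13 made up 1.18% ± 0.0721 of the MMP sum in F/F PBS and 16.8% ± 0.990 in F/F Tat. These sums are of RNA and say nothing of the amount or activity of the enzymes. They were made on the TPM as deposited and not after scaling, so the overlap of the TIMP sums holds only there.

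**Figure D2:**
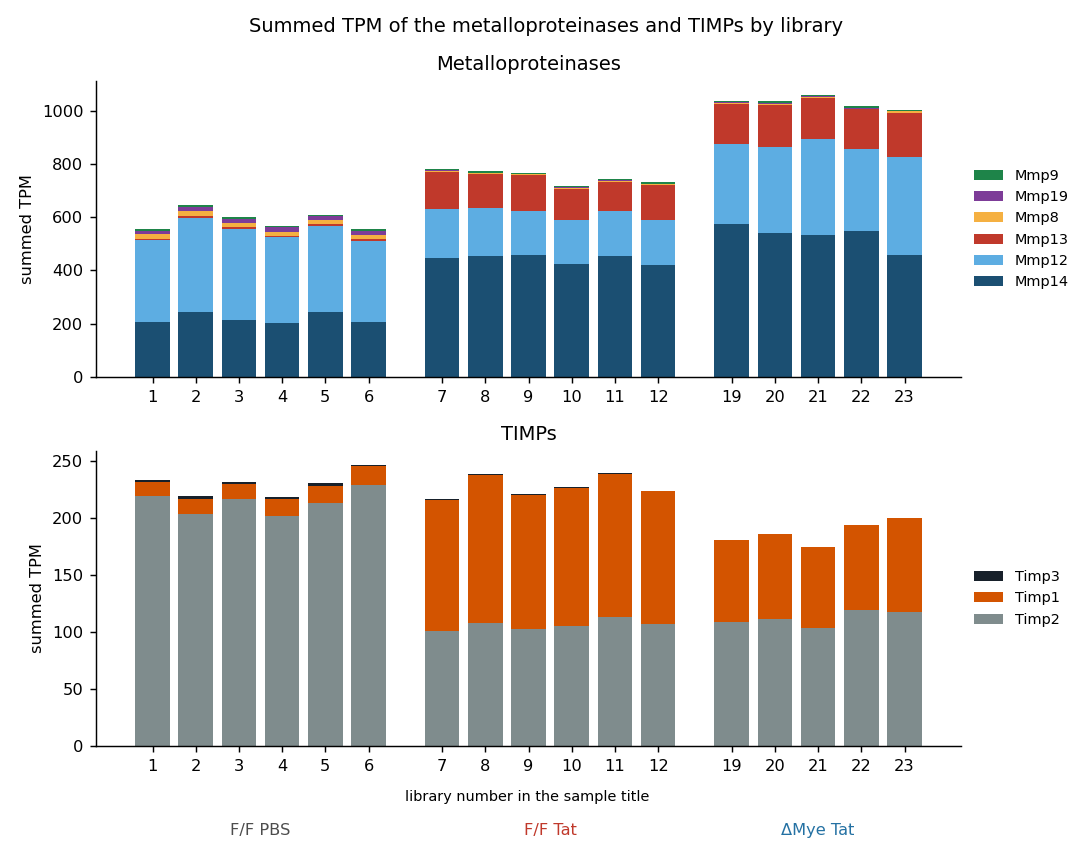
Summed TPM of the 6 MMPs and of the 3 TIMPs in each of the 17 libraries, as stacked bars from 0 with 1 colour for each gene and the libraries grouped as F/F PBS, F/F Tat and ΔMye Tat. The MMP sum has medians of 584, 756 and 1035 TPM in the 3 groups, and Timp1 takes 6.09%, 52.9% and 39.7% of the TIMP sum on average.

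To determine whether deletion of IKKβ, a kinase that activates NF-κB, altered the levels under Tat, ΔMye Tat was compared with F/F Tat. Mmp12 was higher in ΔMye Tat and Timp1 was lower, with no overlap between the groups, and both differences held after scaling. None of the 9 genes was called, against 0.756% of all tested genes (0.440% higher and 0.316% lower), while 6 had an unadjusted limma p under 0.05, as had 63.9% of all tested genes. By the adjusted p alone 5 differed, with Mmp8, Mmp12, Mmp13 and Mmp14 higher and Timp1 lower, against 47.7% of all tested genes (38.8% higher and 8.87% lower). The groups did not overlap for 4 of the 9, against 36.6%. The median log2 difference was 0.22 both over the 9 and over all tested genes, and after scaling 4 differed by the adjusted p alone: Mmp12 higher (background 15.9%) and Mmp9, Timp1 and Timp3 lower (19.4%). F/F Tat libraries enter this comparison and the one with F/F PBS, so the 2 differences of a gene are not independent.

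Mmp12 had 302, 324, 362, 307 and 369 TPM in the 5 ΔMye Tat libraries. All of them lay above the highest F/F Tat library (185 TPM), and the mean of 333 ± 30.8 TPM (SD, n = 5) was 1.93-fold that of F/F Tat (log2 difference 0.95, SE 0.05, limma adjusted p = 3.38e-11, and 0.72 after scaling, adjusted p = 1.77e-08). Against F/F PBS the difference was 0.04 (95% interval -0.08 to 0.15, adjusted p = 0.535), with overlapping ranges. That closeness holds only for the TPM as deposited, since the difference from F/F PBS was 0.45 after scaling (adjusted p = 2.92e-06), -0.21 after quantile normalization (adjusted p = 0.00133) and -0.0020 without ΔMye Tat library 23.

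Timp1 had 71.4, 73.7, 70.5, 74.4 and 81.5 TPM in the 5 ΔMye Tat libraries. They lay below all F/F Tat libraries and above all F/F PBS libraries. The mean of 74.3 ± 4.32 TPM (SD, n = 5) was 61.7% of that in F/F Tat (log2 difference -0.70, SE 0.06, limma adjusted p = 3.52e-08, and -0.92 after scaling) and 5.32-fold that in F/F PBS (log2 difference 2.41, limma adjusted p = 2.74e-17). Fibroblasts and mesothelial cells also make Timp1, and the summed level of 10 of their markers was 30.6 to 41.4 TPM in F/F PBS, 29.9 to 35.3 TPM in F/F Tat and 17.5 to 22.2 TPM in ΔMye Tat. In all groups Dcn led that list, with means of 10.1, 14.2 and 8.11 TPM, and Col1a1 had means of 6.06, 4.47 and 2.59 TPM. The part of such cells in the level of Timp1 was not tested. In bulk RNA, fewer cells of a type and less RNA per cell cannot be told apart.

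Mmp13 stayed high in the deleted cells. It had 150.9, 159, 153, 150.4 and 168 TPM in the 5 ΔMye Tat libraries, all above the F/F Tat libraries (mean 156 ± 7.47 TPM, SD, n = 5, log2 difference 0.30, SE 0.05, limma adjusted p = 9.31e-05). The difference was 0.08 after scaling (adjusted p = 0.234) and 0.22 after quantile normalization (adjusted p = 0.00229), so whether it passed depended on the scaling. Against F/F PBS Mmp13 was 22.5-fold higher (log2 difference 4.48, and 4.88 after scaling).

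Mmp14 had 573, 540.0, 533, 548 and 456 TPM in the ΔMye Tat libraries. Library 23, the lowest of them, overlapped the highest F/F Tat library, and the other 4 lay above (mean 530.0 ± 43.8 TPM, SD, n = 5, log2 difference 0.25, SE 0.06, limma adjusted p = 0.00100, 0.03 after scaling, adjusted p = 0.526, and 0.30 after quantile normalization, adjusted p = 0.00128). Mmp8 had 3.81, 3.89, 4.00, 2.83 and 4.58 TPM, all slightly above the F/F Tat libraries and far below those of F/F PBS. Its log2 difference from F/F Tat was 0.55 (SE 0.11, limma adjusted p = 4.06e-04), 0.34 after scaling (adjusted p = 0.0292) and 0.23 after quantile normalization (adjusted p = 0.144).

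The other 4 genes did not pass the test on the TPM as deposited. Mmp19 had 3.21, 2.78, 2.27, 2.74 and 1.82 TPM in ΔMye Tat (log2 difference 0.22, 95% interval -0.09 to 0.53, limma adjusted p = 0.207) and Timp2 had 109, 112, 104, 119.0 and 118.0 TPM (0.08, -0.01 to 0.17, limma adjusted p = 0.117). Both overlapped F/F Tat and stayed below F/F PBS, and the sign of both differences depended on the scaling (Mmp19 at 0.0076 after scaling and -0.076 after quantile normalization, Timp2 at -0.14 after scaling). Mmp9 had 5.21, 5.63, 5.02, 5.03 and 4.19 TPM, with a log2 difference of -0.20 (95% interval -0.41 to 0.01, limma adjusted p = 0.0901) that was -0.42 after scaling (adjusted p = 0.00139). Timp3 had 0.609, 0.490, 0.529, 0.539 and 0.418 TPM, with a log2 difference of -0.39 (SE 0.16, limma adjusted p = 0.0428) that was -0.59 after scaling (adjusted p = 0.00346).

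**Figure D3:**
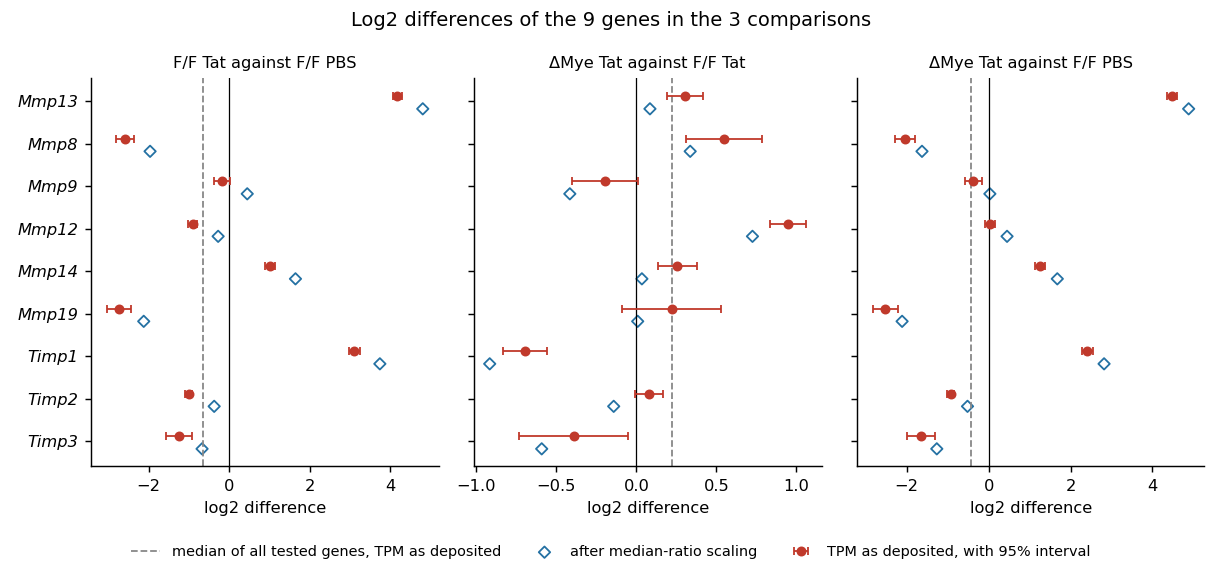
Log2 differences of the 9 genes in the 3 comparisons, with filled points for TPM as deposited and their 95% intervals, open diamonds for values after median-ratio scaling, a dashed line at the median of all tested genes and a solid line at 0. Scaling moves all points with Tat to the right, and Mmp9 crosses 0 in that panel, from -0.18 to 0.45.

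Against F/F PBS, ΔMye Tat had 5 of the 9 genes called (background 15.5%), with Mmp13 and Timp1 higher (background 4.38%) and Mmp8, Mmp19 and Timp3 lower (11.1%). Timp3 was tested only through F/F PBS, its highest group, so its call gives no independent evidence of a fall. By the adjusted p alone 8 differed (76.3% of all tested genes), with Mmp13, Mmp14 and Timp1 higher (17.5%) and 5 lower (58.8%), and 8 of the 9 did not overlap (67.7%). After scaling Mmp14 was called as well and Timp3 was not, which gave 3 higher (background 6.39%) and 2 lower (6.30%). The log2 differences were -2.04 for Mmp8, -2.52 for Mmp19 and -1.65 for Timp3, beside -2.59, -2.74 and -1.26 for F/F Tat against the same F/F PBS libraries. After scaling they were -1.63, -2.11 and -1.27, and Timp3 also fell short of the fold threshold with pseudocounts of 0.5 and 1 and after quantile normalization (-0.75). Both rows of values share those controls. In ΔMye Tat the order of the levels was Mmp14, Mmp12, Mmp13, Timp2, Timp1, Mmp9, Mmp8, Mmp19 and Timp3, and the ranges of Mmp9 and Mmp8 and of Mmp8 and Mmp19 overlapped. Timp1 lay below Timp2 there and above it in F/F Tat.

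On the TPM as deposited, the MMP sum was higher and the TIMP sum lower in ΔMye Tat than in F/F Tat. The 6 MMPs summed to 1004 to 1059 TPM (median 1035) and the 3 TIMPs to 175 to 199.9 TPM, outside the ranges of both other groups. These sums were not made after scaling, and their place relative to F/F PBS may depend on it. After scaling, the log2 differences of ΔMye Tat from F/F PBS were 2.82 for Timp1, -0.52 for Timp2 and -1.27 for Timp3. The ratio of the sums was 2.26 to 2.95 in F/F PBS (median 2.60), 3.11 to 3.62 in F/F Tat (median 3.26) and 5.02 to 6.06 in ΔMye Tat (median 5.57), so the 3 ranges did not overlap. A ratio within a library does not change when a library is scaled by 1 factor. Of the MMP sum in ΔMye Tat, Mmp14 made up 51.4% ± 3.80 (SD, n = 5), Mmp12 32.3% ± 3.10 and Mmp13 15.2% ± 0.950, against 58.9% ± 1.45, 22.9% ± 0.655 and 16.8% ± 0.990 in F/F Tat (n = 6).

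The chromosome 9 cluster holds 9 Mmp genes over 427 kb (chr9:7272514-7699585), in the order Mmp13, Mmp12, Mmp1b, Mmp3, Mmp10, Mmp8, Mmp27, Mmp20 and Mmp7. Mmp12 starts 71.9 kb and Mmp8 286 kb from the start of Mmp13. Of the 5 cluster genes that were tested, Mmp13 and Mmp3 were higher with Tat and Mmp12, Mmp8 and Mmp27 lower. Mmp3 (stromelysin 1, which can activate other pro-MMPs) had a mean of 0.0376 TPM with PBS, which was 1.16 TPM with Tat in F/F cells and 0.346 TPM in the deleted cells. It was called with Tat (log2 difference 3.24, limma adjusted p = 5.09e-10). Only F/F Tat libraries reached 1 TPM, with at most 0.0929 TPM in F/F PBS and 0.519 TPM in ΔMye Tat. Mmp3 thus entered the test only through its highest group, so its call is no independent support for a rise. Mmp27, next to Mmp8, had means of 6.30, 2.28 and 3.86 TPM in the 3 groups (log2 difference -1.44 with Tat, limma adjusted p = 8.44e-11, and 0.74 in ΔMye Tat against F/F Tat, adjusted p = 1.12e-05). Mmp20, the enamel protease, was listed at 0 in every library, and Mmp1b, Mmp10 and Mmp7 had group means of at most 0.142 TPM.

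**Figure D4:**
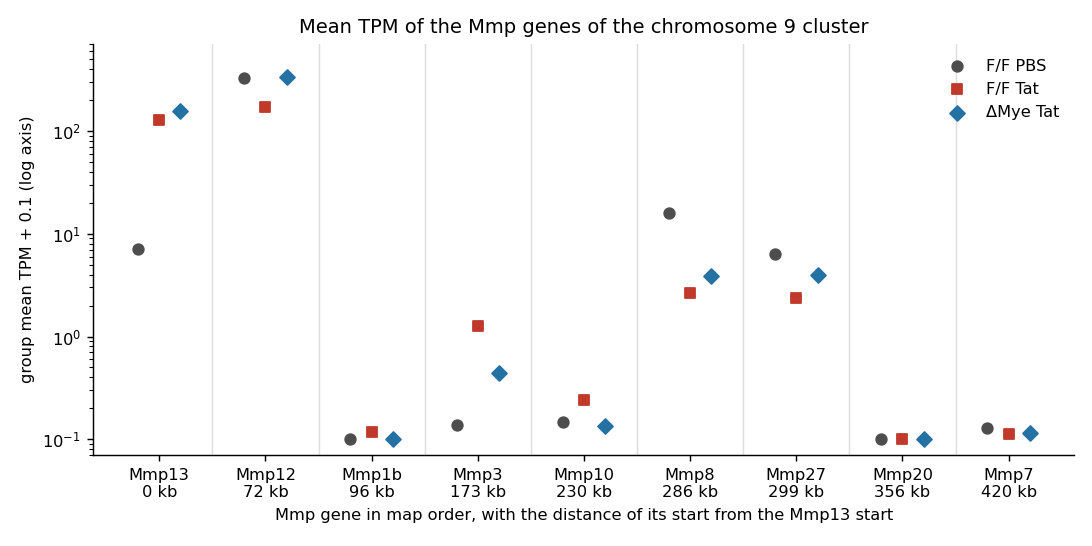
Group mean TPM + 0.1 on a log axis for the 9 Mmp genes of the chromosome 9 cluster in map order, with 1 marker for each group and the distance of each start from that of Mmp13 in kb. Mmp13 and Mmp3 have their F/F Tat marker above that of F/F PBS, and Mmp12, Mmp8 and Mmp27 below it.

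Of 17 other MMPs, 16 were in the table and 5 were tested. With Tat, 2 were called, both higher: Mmp3 and Mmp25 (MT6-MMP, a membrane-anchored enzyme, with means of 0.977, 4.97 and 2.83 TPM in F/F PBS, F/F Tat and ΔMye Tat, log2 difference 2.32, limma adjusted p = 5.54e-09). By the adjusted p alone Mmp2 (gelatinase A) was higher as well, at means of 0.966, 2.43 and 1.56 TPM, and Mmp27 and Mmp28 were lower. Mmp28 had means of 1.85, 1.19 and 1.16 TPM, with a log2 difference of -0.63 with Tat (limma adjusted p = 0.00450) that was -0.04 after scaling. In ΔMye Tat against F/F Tat none of the 5 was called. Mmp3, Mmp25 and Mmp2 were lower by the adjusted p alone (log2 differences -1.55, -0.79 and -0.66) and Mmp27 was higher. Mmp25 and Mmp2, which Tat raised, were thus lower in the deleted cells, Mmp2 with overlapping ranges, and Mmp13 and Mmp14 were not. Mmp3 was tested only through F/F Tat, its highest group, so the filter favoured both of its differences. F/F Tat libraries enter both comparisons, so the rise and the fall of a gene are not independent. None of the other inhibitors Timp4, Reck and A2m passed the filter on low values.

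Genes that act with MMPs were described from further lists, which with the other MMPs and inhibitors above held 83 genes in all, of which 36 were tested. Of these, 9 were called higher, Mmp3 and Mmp25 among them, and 4 lower with Tat, where 5.21% and 19.4% of all tested genes were. Mmp3 and Adamts10 among those called were tested only through their highest group. After scaling, the genes named here as called stayed called except Lrp1 and Adam10. Among 8 tested genes of plasminogen activation and proprotein convertases, which control the activation of pro-MMPs, 4 were called, all higher. Serpinb2 (an inhibitor of plasminogen activators) had means of 53.4, 609.7 and 442 TPM in F/F PBS, F/F Tat and ΔMye Tat (log2 difference with Tat 3.51, limma adjusted p = 1.17e-21), and Furin, the convertase that activates MMP14, had 64.6, 364 and 242 TPM (2.49). Plaur, the urokinase receptor, was called as well, at 240.0, 827 and 676 TPM (1.79), named after its values were seen.

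Among 5 partners of MMPs, Lcn2, whose protein binds MMP9, was called higher at means of 166, 1151 and 899 TPM in the 3 groups (log2 difference with Tat 2.79). Adam8 (a membrane protease; 130.8, 25.5 and 37.9 TPM, -2.35) and Lrp1 (a receptor that clears MMPs and TIMPs; 99.0, 30.3 and 43.0 TPM, -1.70) were called lower. After scaling, Lrp1 was at -1.06 and no longer past the fold threshold. Of 5 tested ADAM proteases, Adam10, a sheddase, was called lower (65.7, 17.4 and 26.8 TPM, -1.91, and -1.28 after scaling, no longer past it). The 1 tested member of 19 ADAMTS genes, Adamts10, named after its values were seen, was called lower at 1.63, 0.150 and 0.545 TPM (-2.93). Adamts10 met the filter on low values only because of its level with PBS, so this call gives no independent evidence of a fall. Of 12 tested matrix proteins, Vcan (versican, 5.85, 75.3 and 36.8 TPM, 3.68) and Thbs1 (thrombospondin 1, 99.2, 724 and 264 TPM, 2.87) were called, both higher.

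In ΔMye Tat against F/F Tat, 0 of these 36 genes were called with limma, while 30 had an unadjusted p under 0.05, 13 higher and 17 lower (52.0% and 12.0% of all tested genes). By the adjusted p alone, Serpinb2 (log2 difference -0.46), Furin (-0.60), Plaur (-0.29), Lcn2 (-0.36), Vcan (-1.04) and Thbs1 (-1.47) were lower, and Adam8 (0.57) and Adam10 (0.62) were higher. Of the matrix proteins 6 were lower and 2 higher, and of the plasminogen and convertase genes 5 were lower and 2 higher, where 8.87% of all tested genes were lower and 38.8% higher. Col1a1 and Col1a2, among the lower matrix genes, are also on the list of fibroblast and mesothelial markers. The summed level of that list was 29.9 to 35.3 TPM in F/F Tat and 17.5 to 22.2 TPM in ΔMye Tat. The part of such cells in these counts was not tested.

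Across the 17 libraries the genes whose log2 levels were most like those of a member were named by Pearson r, as a description, since the points fall into 3 groups. Closest to Mmp13 was Tnf (r = 0.999), with means of 127, 1826 and 2267 TPM in F/F PBS, F/F Tat and ΔMye Tat. Closest to Timp1 was Oas1a (r = 0.999; 226, 731 and 564 TPM), followed by Isg15 and Mlkl. Mmp12 was most like Igsf6 (r = 0.981; 175, 84.6 and 186.5 TPM), followed by Nr1h3 and H2-DMb1. Mmp14 was most like Jag1 (r = 0.996), Mmp8 like Aagab (r = 0.993), Mmp19 like Nucb1 (r = 0.993), Timp2 like Rab31 (r = 0.994) and Timp3 like Creb3l2 (r = 0.977). Mmp9 had no gene above r = 0.865 (Rtl8c).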

How the data were processed

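RNA-Seq was analysed in 17 libraries grouped by the sample labels as F/F PBS, F/F Tat and ΔMye Tat. The authors made the deposited TPM values with Salmon and the Ensembl annotation of GRCm38 and listed them by gene symbol. The submitters' processing notes name the build mm10, and tool versions are not given in the sources used here. The authors compared groups in edgeR, with TMM and likelihood ratio tests, which TPM do not allow to be repeated. Coordinates are from GENCODE M21 on GRCm38, and promoter windows from RefSeq. Thioglycollate was given 3 days before collection by the labels and at another interval by the methods.

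A gene was tested if 5 or more libraries had 1 TPM or more. The scale was log2(TPM + 0.1) and the tool limma 3.58.1 (R 4.3.3, eBayes with trend, 3 groups in 1 fit, 14 residual degrees of freedom, Benjamini-Hochberg adjustment over all 10451 genes). Fold changes on this scale understate the change of low genes. Groups were also compared by exact two-sided permutation tests in SciPy 1.17.1, whose smallest p was 0.00216 for 6 against 6 and 0.00433 for 6 against 5 libraries, and 27 such tests were made. The script was tested on simulated data. Alternatives were other pseudocounts (0.5 and 1), other filters, median-ratio and quantile scaling, fits of the compared groups alone, array weights, and leaving out each library. TPM hold no read counts, so depth and counting error are unknown. A date replaces the symbol in 26 rows of the table, and 2 rows repeat a symbol.

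The 9 genes and the gene and marker lists were chosen with earlier results of these data known. Named from the lists were the other MMPs that were tested and, from each other list, the 3 genes with the largest change each way among those called with Tat whose higher group averaged 5 TPM or more. A result of this rule is not reported here. For each member the 3 genes with the highest Pearson r were named or a part of them.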

Additional observations from a re-analysis of the deposited data

Results flagged for a closer look

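Among the 27 sets of values of 1 gene in 1 group, 1 held a library that stood apart from the rest by Dixon's criterion: Mmp8 in F/F Tat library 11 had 1.96 TPM, below the other libraries of its group, which had 2.59 to 2.81 TPM. Chance marks about 1 in 20 such sets.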

How the results depend on the processing

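Of the values of single genes with all libraries kept, 196 kept their direction and their side of an adjusted p of 0.01, 7 reversed, 5 passed it newly and 5 no longer passed it. This tally leaves the fold threshold aside, which Mmp14 with Tat passed only after scaling (1.64) and Mmp8 in ΔMye Tat against F/F PBS no longer passed after quantile normalization (-1.56). With 1 library left out, 458 kept both and 1 reversed. With the adjusted p alone, 8 of the 9 genes differed with Tat, 5 between ΔMye Tat and F/F Tat, and 8 between ΔMye Tat and F/F PBS, and after quantile normalization 3 were called in the last. Median-ratio scaling and quantile normalization turned Mmp9 with Tat to 0.45 and 0.69 and Mmp9 in ΔMye Tat against F/F PBS to 0.031 and 0.26. Quantile normalization turned Mmp12 in ΔMye Tat against F/F PBS to -0.21 and Mmp19 in ΔMye Tat against F/F Tat to -0.076, and median-ratio scaling turned Timp2 there to -0.14. Without ΔMye Tat library 23, Mmp12 against F/F PBS was -0.0020, and without any other single library it was up to 0.069. Of the 36 tested genes among the other MMPs and the genes that act with MMPs, 2 (Mmp3 and Thbs1) were called in ΔMye Tat against F/F Tat after median-ratio scaling. After quantile normalization 1 (Mmp3) was called, against 0 otherwise. Leaving out 1 library gave 0 to 2: Mmp3 without F/F Tat library 12, ΔMye Tat library 19 or ΔMye Tat library 22, and Mmp3 and Adamts10 without ΔMye Tat library 20. Mmp3 passed the filter only through F/F Tat libraries, so without any of these except library 12 it was not tested. Adamts10 passed only through F/F PBS libraries, and without most of these it was not tested either. The causes were not tested. No paired analysis was possible because the groups share no replicate numbers. TPM hold no depth, so values near 1 TPM, such as those of Timp3, have an unknown counting error.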
